A study of Saccharomyces cerevisiae with 8 samples.

Results

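The first replication after release was measured in Mcm6-SuOn budding yeast as the copy number of each stretch of the genome at 15 min relative to 0 min. The comparison rests on 2 of the 8 libraries of the study, Mcm6-SuOn at 15 min and Mcm6-SuOn at 0 min. It covers 22916 of 24133 windows of 1000 bp placed every 500 bp, those in which the deposited ratio of the 15 min count to the 0 min count was above 0. Each ratio was divided by its genome median of 0.749, so that a relative copy number of 1 is the median of the genome. Mcm6-SuOn cells carried Mcm6-SuOn::KAN/+ and control cells Mcm6-ctrl::KAN/+. Both were W303 cells that also held Mcm6-aid::HIS3/+, whose product auxin (IAA) removes, together with TIR, the auxin receptor, from the ADH1 promoter (ADH1-TIR::URA/+), and the homozygous temperature-sensitive allele cdc7-4/cdc7-4. All were arrested with nocodazole, given IAA, shifted to the temperature that inactivates cdc7-4, and released by cooling. Each genotype is 1 strain in the labels, with 1 library for each time, so that no value has a replicate check, and no test between groups was possible. Intervals cover counting error alone, at 95%.

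In budding yeast, replication starts at origins, where a double ring of the MCM helicase, of which Mcm6 is a subunit, has been loaded before S phase. The kinase Cdc7 then phosphorylates MCM, and the helicase is activated. Each active origin sends forks out on both sides, so that sequences at the origin double first and copy number falls away with distance, which draws a peak in the ratio to unreplicated cells. With time, peaks widen as forks move on and valleys fill. The comparison asks where along the genome copy number had begun to change in Mcm6-SuOn cells at the earliest time sampled. The windows carry no gene or origin names and an annotation of their build, sacCer2, was not used here, so that sites are given by position. The windows do not carry the Mcm6 alleles, and the genotype labels could not be checked against them.

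Single sites were read over 3 kb to lower the counting error. The 15 min library held 13791470 reads in the windows used, against 18480968 in all windows at 0 min, with medians of 1185 and 1587 reads per window used. The 1217 windows left out held at most 600 reads at 0 min in 1119 cases, and the other 98 held more. Of those left out, 550 lay within 30 kb of a chromosome end.

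Copy number at 15 min varied along the Mcm6-SuOn genome by more than counting error, but by little. The SD over windows was 0.067 relative units, against 0.0385 from counting error alone, which made up 33.1% of the variance. Of all windows, 90% lay between 0.901 and 1.12, and the lowest and highest were 0.785 and 1.34. In the control library pair the same range ran between 0.861 and 1.295, with an SD of 0.139. Each genotype was set over its own 0 min library, and the spread depended on that choice. Over the control's 0 min reads, the SD of Mcm6-SuOn at 15 min was 0.163. Neighbouring windows that do not overlap were correlated at r = 0.450 in Mcm6-SuOn, and windows 20 kb apart at 0.172. In the control these correlations were 0.860 and 0.577, and in both genotypes the pairs share a library and a 0 min denominator.

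High windows lay near chromosome ends in a larger share than all windows did, and low windows in a smaller one. In all, 1853 windows (8.09%) exceeded 1.1-fold of the genome median and 1490 (6.5%) lay below the median divided by 1.1. In control cells at 15 min, 22.4% and 16.2% of windows did so. Of the high windows, 50.2% lay within 75 kb of an end and 13.3% within 10 kb of a peak described below, where 18.4% and 7.77% of all windows used lay. Of the low windows, 4.899% lay within 75 kb of an end and 2.89% within 10 kb of a peak. Those near peaks follow from how peaks are defined, since both use the same library.

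Against this shallow background, 45 local peaks stood out at 15 min. A peak was a window of the deposited smoothed ratio that no other within 5 kb exceeded, with a prominence, the drop to the higher of the surrounding valleys, of at least 0.1. The most prominent reached 0.180, the median was 0.120, and 6 reached 0.15. In the unsmoothed ratio, the 3 kb around the peaks had a median relative copy number of 1.07, between 1.02 and 1.17. To set a peak against its surroundings, its centre, the windows within 1 kb, was divided by the windows 14 to 16 kb away on both sides. This centre over flank ratio had a median of 1.096 over the peaks, with quartiles of 1.06 and 1.12. It was above 1 at 44 of the 45, against 48.8% of all windows, which the choice of peaks on this library favours.

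**Figure D1:**
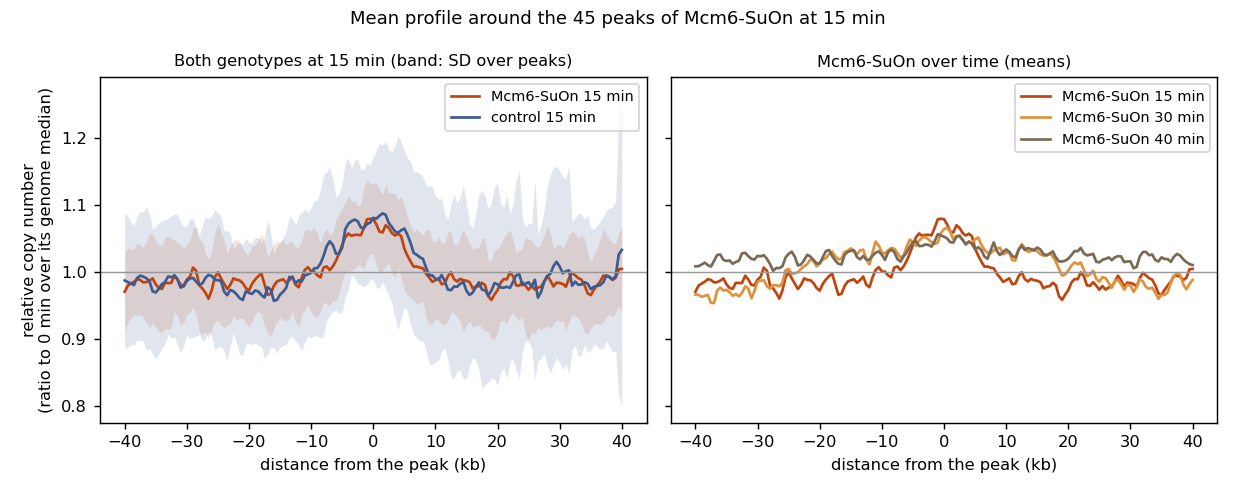
Mean relative copy number (ratio to 0 min over its genome median) by distance in kb from the 45 peaks of Mcm6-SuOn at 15 min, on the left for Mcm6-SuOn and control at 15 min with bands for the SD over peaks, on the right for Mcm6-SuOn at 15, 30 and 40 min. At 15 min the mean at the centre is 1.07 in Mcm6-SuOn and 1.08 in the control, and at 15 kb it is 0.985 and 0.970.

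The first 5 peaks by prominence lay on chromosomes XV, IV, VII and X, at least 327 kb from an end. The first, at chromosome XV 491001 to 492000, held 3705 reads at 15 min, against 4547 at 0 min in the 3 kb around it, which is a relative copy number of 1.09 (1.04 to 1.14). Its centre over flank ratio was 1.14 (1.08 to 1.202). The second, at chromosome IV 330001 to 331000, held 3507 reads at 15 min, against 4274 at 0 min, with a relative copy number of 1.096 (1.05 to 1.15) and a ratio of 1.12 (1.06 to 1.18). In both, fewer reads at 0 min were found at the centre than on the flanks, at 0.943 and 0.945 of their level. With the same 15 min reads over the control's 0 min reads, their centre over flank ratios were 1.04 and 1.01. Over the pooled 0 min reads of both genotypes they were 1.09 and 1.07. Whether the lower 0 min reads at the centre raised the ratio was not tested. The third, at chromosome VII 487501 to 488500, held 3500 reads at 15 min, against 4262 at 0 min, with a relative copy number of 1.096 (1.05 to 1.15). Its 0 min reads were level with the flanks at 0.992, and its centre over flank ratio was 1.11 (1.05 to 1.17). The peak at chromosome IV 914001 to 915000 held 3558 reads at 15 min, against 4151 at 0 min, and had the second highest relative copy number of the first 10, 1.14 (1.09 to 1.197). It stood 1.096 (1.04 to 1.16) over its flanks. At chromosome X 417501 to 418500, 4022 reads at 15 min, against 4990 at 0 min, gave a relative copy number of 1.08 (1.03 to 1.12) and the smallest centre over flank ratio of the first 10, 1.06 (1.01 to 1.12).

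Ranks 6 to 10 were spread over 5 chromosomes. The peak at chromosome XIII 809501 to 810500 had the highest relative copy number of the first 10, 1.16 (1.11 to 1.22), from 3679 reads at 15 min, against 4222 at 0 min. Its centre over flank ratio was 1.14 (1.08 to 1.201). The peak at chromosome VI 200501 to 201500, on one of the shortest chromosomes, held 4769 reads at 15 min, against 5886 at 0 min, with a relative copy number of 1.08 (1.04 to 1.12) and a ratio of 1.097 (1.05 to 1.15). It lay 68.6 kb from the right end, nearer to an end than the other 9. At chromosome IV 555501 to 556500, 3925 reads at 15 min, against 4848 at 0 min, gave 1.08 (1.04 to 1.13) in relative copy number and 1.098 (1.04 to 1.16) over the flanks. At chromosome XII 372501 to 373500, 3275 reads at 15 min, against 4032 at 0 min, gave 1.08 (1.04 to 1.14), and its centre over flank ratio of 1.16 (1.098 to 1.23) was the highest of the first 10. The tenth, at chromosome VII 163001 to 164000, held 3940 reads at 15 min, against 4666 at 0 min, with 1.13 (1.08 to 1.18) in relative copy number and 1.15 (1.09 to 1.21) over the flanks. At all 10 the counting intervals of both measures lay above 1.

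Among peaks of lower rank, some were not clear of their flanks within counting error. Ranks 11 to 20 had prominences of 0.123 to 0.135, relative copy numbers of 1.02 to 1.105 and centre over flank ratios of 0.996 to 1.16, with a counting interval above 1 at 8 of 10. The exceptions were chromosome XVI 414501 to 415500, at 0.996 (0.943 to 1.05), and chromosome XII 888001 to 889000, at 1.01 (0.963 to 1.07). The remaining 25 peaks had ratios between 1.01 and 1.203, and 16 of their intervals lay above 1. Among these, chromosome IV 433001 to 434000, of rank 40, had the largest centre over flank ratio of all, 1.203 (1.14 to 1.27), from 3904 reads at 15 min, against 4444 at 0 min; it was chosen for mention after its value was seen. Prominence and the unsmoothed ratio thus ranked the peaks differently.

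Values ran on across the threshold. The 5 peaks just above it, on chromosomes XV, XIV, XI, XVI and XII, had prominences of 0.101 to 0.105 and centre over flank ratios of 1.06 to 1.12. The 5 local maxima just below it, on chromosomes XIV, VII, XV and IV, had prominences of 0.0961 to 0.0999, and the 3 with both flanks measured had ratios of 0.982 to 1.07. Another 147 maxima had a prominence between 0.05 and 0.1.

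The control libraries, which played no part in choosing these places, were raised at nearly all of them. In control cells at 15 min over control cells at 0 min, the centre over flank ratio at the 45 Mcm6-SuOn peaks had a median of 1.12 (quartiles 1.08 and 1.16), and it was above 1 at 43. Of all windows in the control, 46.6% were above 1, with a median of 0.994. The counting interval of the control value lay above 1 at 37 of the peaks. The exceptions at or below 1 were chromosome XII 888001 to 889000, at 0.990 (0.940 to 1.04), and chromosome X 680501 to 681500, at 0.973 (0.924 to 1.02), both with intervals that include 1. The weaker Mcm6-SuOn maxima, of prominence 0.05 to 0.1, were raised in the control at most places. Their median control value was 1.05, and 109 of 140 measured were above 1. At the 6 peaks of at least 0.15, the control median was 1.11.

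**Figure D2:**
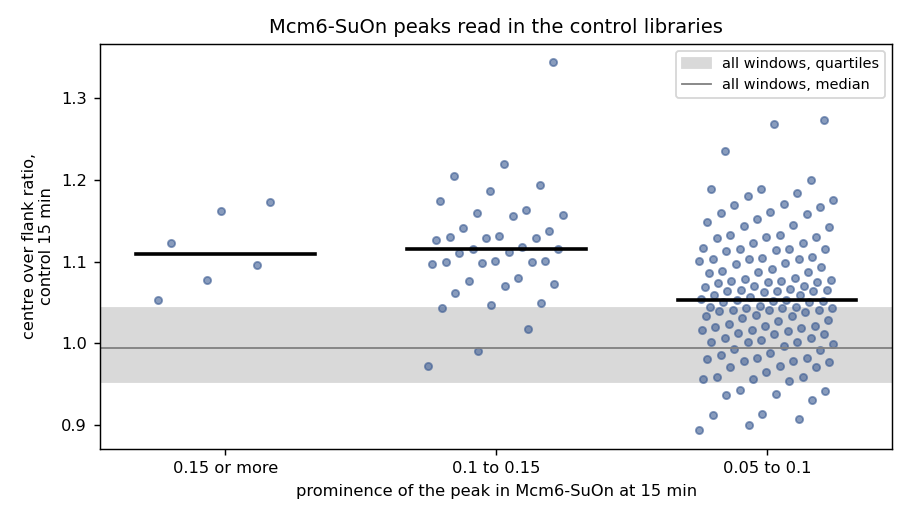
Centre over flank ratio in control cells at 15 min (vertical axis, no unit) at the Mcm6-SuOn peaks, grouped by their prominence in Mcm6-SuOn; each point is a peak, bars are medians and the grey band and line are the quartiles and median of all windows. The medians are 1.11, 1.12 and 1.05 from the strongest to the weakest group, against 0.994 for all windows.

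At single peaks the genotypes mostly overlapped within counting error. The counting intervals of Mcm6-SuOn and control overlapped at 41 of the 45 peaks, and Mcm6-SuOn was the higher at 17, although its own library chose them. Where the intervals lay apart, the control was the higher at 3 and Mcm6-SuOn at 1. The peak higher in Mcm6-SuOn was chromosome IV 433001 to 434000, at 1.203 (1.14 to 1.27) in Mcm6-SuOn and 1.06 (1.01 to 1.12) in the control. The largest control excess among the 20 named peaks was at chromosome XII 372501 to 373500, where the ratio was 1.16 (1.098 to 1.23) in Mcm6-SuOn and 1.34 (1.27 to 1.42) in the control. At chromosome XVI 414501 to 415500 it was 0.996 (0.943 to 1.05) in Mcm6-SuOn and 1.16 (1.096 to 1.22) in the control. Among the named peaks, Mcm6-SuOn was the higher at chromosome XIII 809501 to 810500, for example, at 1.14 (1.08 to 1.201) in Mcm6-SuOn and 1.05 (0.996 to 1.11) in the control, where the intervals overlap.

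**Figure D3:**
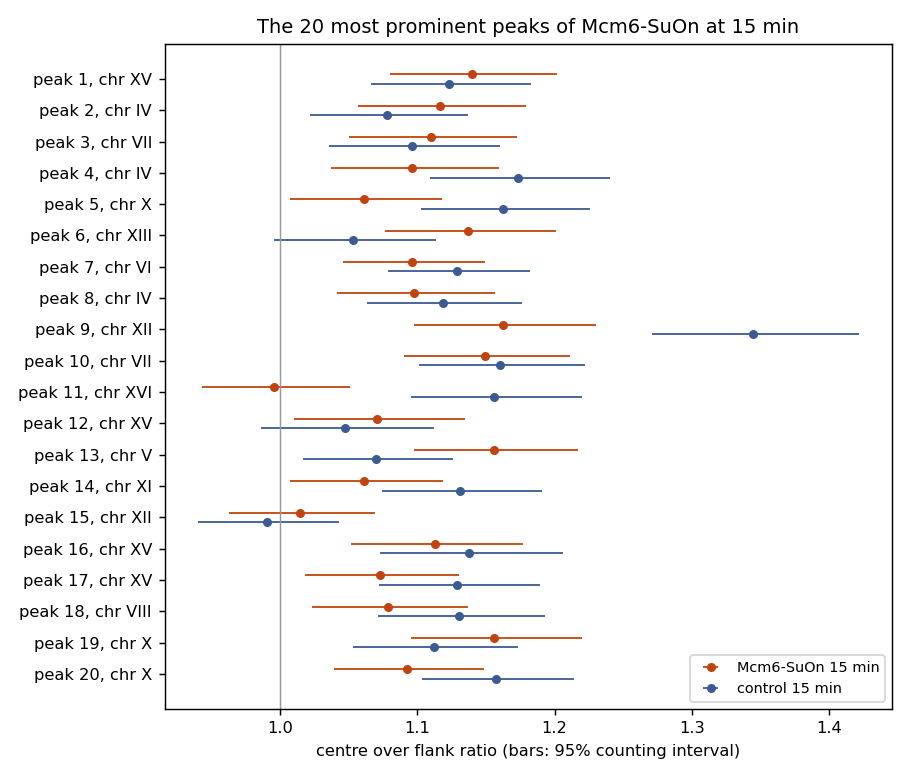
Centre over flank ratio (horizontal axis, no unit) at the 20 most prominent peaks of Mcm6-SuOn at 15 min, with Mcm6-SuOn above control in each row and bars for the 95% counting interval. In Mcm6-SuOn, 18 of the 20 intervals lie above 1, and the control value of peak 9, 1.34, lies farthest from 1.

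The 0 min denominator changed the values of single peaks and which peaks were called. The 0 min reads themselves were near level at the peaks, with a median centre over flank ratio of 0.994 in Mcm6-SuOn and 1.01 in the control. With the 15 min reads of Mcm6-SuOn set over the control's 0 min reads, the median ratio was 1.08 and 40 of 45 peaks were above 1, against 47.4% of all windows. Over the pooled 0 min reads of both genotypes it was 1.08, with all 45 above 1, against 48.4% of all windows. The same 15 min reads had chosen these places, and the pooled reads include the Mcm6-SuOn 0 min reads. Both results were therefore favoured by the choice of peaks. When peaks were called anew, however, only 26 of the 45 had a peak within 5 kb over the pooled reads and 17 over the control's, against 44 with the same smoothing over the Mcm6-SuOn reads. The peak at chromosome VI 200501 to 201500 had a ratio of 1.097 over its own 0 min reads and 0.991 over the control's. The peak at chromosome VII 163001 to 164000 had 1.15 and 1.16. In relative copy number, 4 of the 20 named peaks lay below 1 over the control's reads, among them the first, at 0.996, and the lowest, at chromosome X 614501, at 0.924.

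In the later Mcm6-SuOn libraries, the values at the peaks and 15 kb away lay nearer to each other. The places were chosen for a maximum in the 15 min library, which by itself favours a lower centre over flank ratio in any other library, so that no change over time is read from them. For 15, 30 and 40 min, the mean relative copy number at the peaks was 1.07, 1.06 and 1.05, all over the same 0 min library. At 15 kb from the peaks it was 0.985, 1.03 and 1.03, and at 30 kb 0.985, 0.977 and 1.02. The median centre over flank ratio was 1.03 at the 30 min time and 1.03 at the last. With the 30 min reads set over the control's 0 min reads, which share no library with the 15 min comparison, the median ratio was 1.01 and 25 of 45 peaks were above 1, against 47.3% of all windows. In this setting the mean was 1.03 at the peaks, 1.03 at 15 kb and 0.993 at 30 kb. In control cells at 30 min the means at the same distances were 1.11, 1.03 and 0.983, and 38 of 45 peaks had a ratio above 1, against 47.4% of all windows.

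Read at the places where control cells had peaks, the Mcm6-SuOn ratio was raised at most. At the 117 control peaks of 15 min, called by the same rule, the Mcm6-SuOn centre over flank ratio had a median of 1.06 (quartiles 1.02 and 1.097), and 92 of 112 measured were above 1. The share among all Mcm6-SuOn windows was 48.8%, as above. The 10 most prominent control peaks differed among themselves. In Mcm6-SuOn, chromosome III 75501 to 76500 stood 1.14 (1.08 to 1.21) over its flanks and chromosome VII 484501 to 485500 stood 1.14 (1.08 to 1.202), the highest values of the 10. At 3 of the 10 the Mcm6-SuOn value over its own 0 min reads was below 1, with an interval that includes 1. These were chromosome IV 382501 to 383500, at 0.947 (0.884 to 1.01), chromosome IV 1385001 to 1386000, at 0.985 (0.932 to 1.04), and chromosome IX 390001 to 391000, at 0.993 (0.939 to 1.05). The first of them rested on 1890 Mcm6-SuOn reads at 15 min, against 2386 at 0 min, and the control values at these 3 were 1.198, 1.21 and 1.16, on which they were chosen. These 3 turned with the denominator. Over the control's 0 min reads the Mcm6-SuOn values at the same places were 1.22, 1.16 and 1.12. Over the pooled reads they were 1.05, 1.05 and 1.04. The control's 0 min reads helped to choose these places and were low there, at 0.727, 0.804 and 0.729 of their flanks. This favours higher values over the control's and the pooled reads.

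Valleys, the lowest windows between neighbouring peaks or chromosome ends, were deepest on chromosome XV, ranked by the smoothed ratio. At chromosome XV 96001 to 97000, 3415 reads at 15 min, against 5364 at 0 min, gave a relative copy number of 0.850 (0.814 to 0.887) in Mcm6-SuOn, and the control had 0.857 (0.822 to 0.894) at the same place. At chromosome V 307501 to 308500 the values were 0.887 (0.850 to 0.927) in Mcm6-SuOn, from 3456 reads at 15 min, against 5200 at 0 min, and 0.894 (0.856 to 0.933) in the control. At chromosome X 561501 to 562500 they were 0.912 (0.874 to 0.952), from 3562 reads at 15 min, against 5214 at 0 min, and 0.925 (0.887 to 0.965). These 3 places were thus low in both genotypes. At chromosome XII 433001 to 434000, 2519 reads at 15 min, against 3735 at 0 min, gave 0.900 (0.856 to 0.947) in Mcm6-SuOn, while the control was above its median at 1.07 (1.02 to 1.12). At chromosome III 176501 to 177500, 3775 reads at 15 min, against 5427 at 0 min, gave 0.929 (0.891 to 0.968) in Mcm6-SuOn, and the control had 0.991 (0.950 to 1.03), an interval that includes 1. The first 10 valleys ranged from 0.850 to 0.944 in Mcm6-SuOn, and the control was below its median at 9 of the 10. Control windows far from the ends also had medians below 1, of 0.978 at 150 to 250 kb and 0.960 at 250 to 800 kb. Low control values were thus common inside chromosomes and not particular to these valleys. Over 15, 30 and 40 min in Mcm6-SuOn, the first valley had 0.850, 0.989 and 1.12, and the second 0.887, 0.941 and 0.856. Valleys were chosen for a minimum in the 15 min library, which by itself favours higher values in any other library. No change over time is therefore read from them.

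The peaks varied in width. At 50% of the height over the higher neighbouring valley, the median width was 18.9 kb, with quartiles of 15.8 and 25.1 kb. The narrowest, at chromosome II 169001 to 170000, measured 9.55 kb, and the widest, at chromosome XII 600001 to 601000, 39.2 kb. The authors' smoothing sets a lower limit to these widths. The left and right shoulders had medians of 8.78 and 8.12 kb, the right was the longer at 21 of 45, and one side was over 2 times the other at 11. Lopsided examples were chromosome XVI 414501 to 415500, with 8.72 kb on the left and 24.4 kb on the right, and chromosome XV 688001 to 689000, with 26.4 and 9.38 kb.

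Peaks lay inside chromosome arms. They fell on 14 of 16 chromosomes, with 6 each on IV and XII, 5 each on X and XV, and none on III or IX. On III and IX, 4 and 8 maxima reached a prominence of 0.05. Neighbouring peaks of a chromosome were a median of 145 kb apart, between 28 and 326 kb. Of the peaks, 3 lay within 75 kb of an end and 37 beyond 150 kb, where 18.4% and 62.2% of the windows used lay. The nearest to an end was 63.2 kb away. The rule disfavours ends, since the first and last measured windows of a chromosome cannot be peaks. Near an end, few windows are also left for a drop. The part of the rule in these shares was not tested.

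Over longer distances, copy number at 15 min was highest towards chromosome ends, which in budding yeast mostly replicate late. The median relative copy number in Mcm6-SuOn was 1.08 within 10 kb of an end, 1.08 at 10 to 20 kb, 1.04 at 30 to 50 kb and 1.02 at 75 to 100 kb. Beyond 250 kb it was 0.987. Windows within 30 kb of an end stood 1.07-fold over the rest. The 32 ends rested on unequal numbers of windows, from 4 at the right end of chromosome I to 61, for example at that of IX. Their values were not alike: 30 stood above the inner median, 28 with a counting interval above 1, and 1 with one below 1. The highest was the right end of chromosome XIII at 1.15 (1.13 to 1.17), from 25398 reads at 15 min and 29533 at 0 min. The left end of VI followed at 1.15 (1.13 to 1.17). The right end of the same chromosome was the lowest of all, at 0.976 (0.965 to 0.988), from 47772 and 65591 reads.

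The size of this difference depended on the 0 min library. For the 15 min reads of Mcm6-SuOn it was 1.07-fold over the Mcm6-SuOn 0 min reads, 1.15-fold over the pooled reads and 1.26-fold over the control's. Control cells at 15 min stood at 1.23-fold over their own 0 min reads and 1.05-fold over those of Mcm6-SuOn. In Mcm6-SuOn over its own 0 min reads, the later values were 1.099 (30 min) and 0.998 (40 min). The part of uneven coverage of ends among 0 min libraries in the result was not tested.

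**Figure D4:**
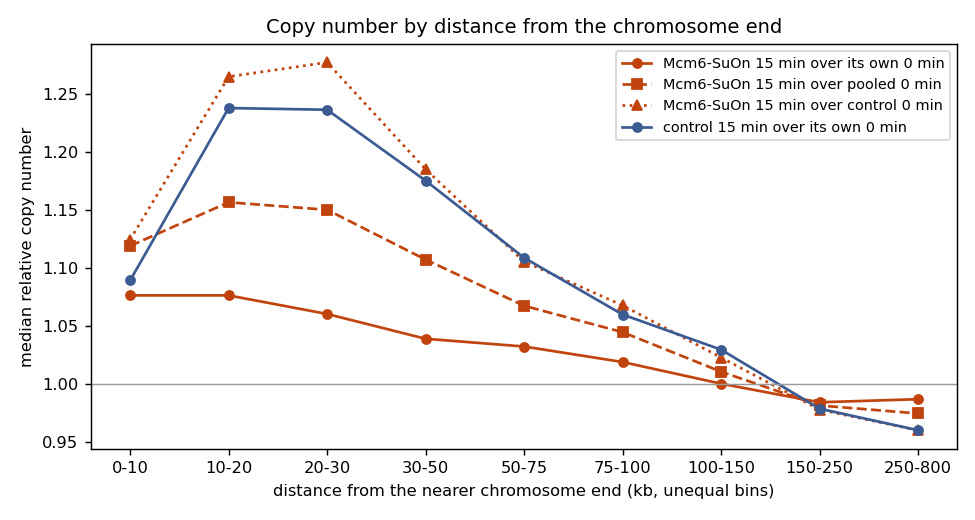
Median relative copy number (vertical axis, ratio over its genome median) by distance from the nearer chromosome end in kb, in unequal bins, for Mcm6-SuOn at 15 min over 3 denominators and for control at 15 min over its own 0 min library. At 10 to 20 kb the Mcm6-SuOn medians are 1.08, 1.16 and 1.26 over its own, pooled and control 0 min reads, and the control median is 1.24.

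Whole chromosomes differed by a few percent. Chromosome I gained most, with a read share at 15 min of 1.050 (1.045 to 1.056) times that at 0 min, followed by IX at 1.023 (1.019 to 1.027), VI at 1.013 (1.009 to 1.017), II at 1.009 (1.006 to 1.012) and III at 1.009 (1.005 to 1.013). The lowest were XI at 0.977 (0.975 to 0.980), X at 0.989 (0.986 to 0.991), XVI at 0.991 (0.989 to 0.994), VIII at 0.995 (0.991 to 0.998) and XV at 0.996 (0.994 to 0.998). These intervals leave out 1, but the order is not one of length alone: Pearson's r with length over the 16 chromosomes was -0.489 and Spearman's rho -0.450, and without the outer 75 kb they were -0.233 and 0.118. The points share both libraries. Chromosome I kept a value of 1.055 and XI of 0.979 without the outer 75 kb. In the control the share of chromosome I was 1.26 and that of XI 0.950. Chromosomes VI and VIII crossed 1 over other 0 min reads, at 0.994 and 1.012 over the pooled reads. Along single chromosomes, the SD of the smoothed ratio was largest on VI, at 0.0592, and smallest on I, at 0.0256, where 2 maxima reached a prominence of 0.05.

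**Figure D5:**
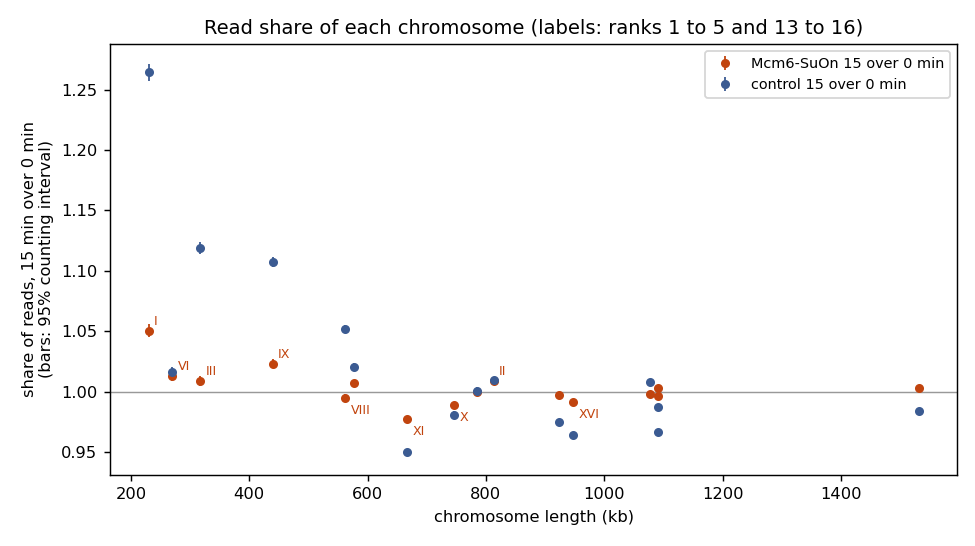
Share of reads of each of the 16 chromosomes at 15 min over that at 0 min (vertical axis, no unit) against chromosome length in kb, for Mcm6-SuOn and control, with bars for the 95% counting interval that are mostly smaller than the points. In Mcm6-SuOn the shares lie between 0.977 and 1.050, and in the control between 0.950 and 1.264.

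A stretch of chromosome III stood slightly above the genome median in Mcm6-SuOn at 15 min. It was known from earlier results of these data to differ between the genotypes before release. It was the longest run of windows with a 0 min read share over 1.5-fold that of the control, from 204001 to 293000, with a median of 1.78. Over its 89 kb the 0 min libraries held 196122 reads in Mcm6-SuOn and 92387 in the control. Their medians over all windows were 1578 and 1331 reads. The 1.78 thus joins a high count in Mcm6-SuOn and a low count in the control. In Mcm6-SuOn the stretch held 150624 reads at 15 min, against 196122 at 0 min, a relative copy number of 1.03 (1.02 to 1.03). Left of it the value was 0.993 (0.988 to 0.998), and right of it, up to the end, 1.08 (1.06 to 1.096). The high count was present in both Mcm6-SuOn libraries and cancelled in their ratio. Over the control's 0 min reads the stretch had a median of 1.87 at 15 min. Over the Mcm6-SuOn 0 min reads, the later Mcm6-SuOn values were 1.01 (30 min) and 0.860 (40 min). The control over its own had 1.305 at 15 min, from 123305 reads at 15 min and 92387 at 0 min.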

How the data were processed

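Genomic DNA was sequenced from 8 cultures, 2 genotypes at 4 times, with 1 library each. Per the labels' protocols, CsCl gradients served to purify DNA, and a KAPA kit to build libraries. Coordinates are those of sacCer2, the build that the submitters' processing notes name. The aligner and the method of smoothing are not given in the sources used here. The authors deposited raw read counts per window at 0 min. For later times they deposited, per the file headers and values, the ratio of the later to the 0 min count, that ratio multiplied by 1 factor per chromosome, and the multiplied ratio after smoothing. The first ratio, which carries no factor, was the main measure. Its product with the 0 min count, rounded, was used as the 15 min reads. The ratio is given to 3 decimals, an error of up to 0.0005 of the 0 min count. Within that error the product was whole in 100% of the 124 windows with at most 1000 reads at 0 min, against 85.5% for the multiplied ratio, a wide tolerance that many numbers meet. Windows overlap, so that reads were summed over non-overlapping windows and each read counted once for depth.

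Intervals of read ratios are exact binomial, and those of centre over flank ratios a normal approximation on the log scale from the 4 read sums, at 95%. Both cover counting error only, since each genotype and time had 1 library. PCR copies among the reads were not assessed here. Places named were the 20 most prominent peaks, the 10 lowest valleys of the smoothed ratio at least 10 kb from an end, the 5 highest and 5 lowest chromosomes, the 5 maxima on either side of the threshold and the run on chromosome III. The members and lists were chosen with earlier results of these data known. No test between groups was run, since each has 1 library. Alternatives were other denominators, smoothing, thresholds, flank distances and windows. Python 3.11.15 was used with numpy 2.4.6, pandas 2.3.3, scipy 1.17.1 and matplotlib 3.10.9.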

Additional observations from a re-analysis of the deposited data

Results flagged for a closer look

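With 1 library a group, 2 results among the named peaks, valleys and chromosomes were marked because Mcm6-SuOn and control moved opposite ways between 0 and 15 min, each beyond its counting interval; the difference itself was not tested. The valley at chromosome XII 433001 to 434000 had a relative copy number of 0.900 (0.856 to 0.947) in Mcm6-SuOn and 1.07 (1.02 to 1.12) in the control; with the control's 0 min reads as denominator the Mcm6-SuOn value was 0.989. The read share of chromosome VIII at 15 over 0 min was 0.995 in Mcm6-SuOn (0.991 to 0.998) and 1.052 in the control (1.048 to 1.055). Over the pooled and the control's 0 min reads the Mcm6-SuOn share was 1.012 and 1.034, so that the opposite direction was lost. Of the chromosomes not named, IV and VII also met this criterion, at 1.0027 and 1.0027 in Mcm6-SuOn and 0.984 and 0.988 in the control, and over the pooled reads the Mcm6-SuOn shares were 0.993 and 0.994.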

How the results depend on the processing

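Counts and sizes depended on the denominator, the smoothing and the prominence threshold. Over the pooled 0 min counts and over the control's, the SD over windows was 0.0935 and 0.163, the windows above 1.1-fold 3467 and 5273, the SD of the chromosome shares 0.0472 and 0.0938, the end ratio 1.15 and 1.26, and the median centre over flank ratio 1.08 and 1.08. Over the control's counts, low windows numbered 3978 and newly called peaks 89. Median width was 21.8 kb over the pooled counts and 17.7 kb with a self-made smoothing. Values that crossed 1 were the peak at chromosome X 614501, at 0.990 and 0.924, the share of chromosome VI, at 0.994 and 0.972, and that of VIII, at 1.012 and 1.034. Over the control's counts alone, the peaks at chromosome XV 491001 (0.996), VI 200501 (0.988) and IV 555501 (0.996) did so. The cause was not tested. Smoothing gave an SD of 0.0429, 551 high and 38 low windows and a centre over flank ratio of 1.08. The SD was 0.066 with the authors' factor for each chromosome, 0.0638 without the outer 30 kb, and 0.0665 in windows of over 1000 reads; the SD of the shares was 0.0169 without the outer 30 kb. At a prominence of 0.05 and 0.15 there were 192 and 6 peaks, with median ratios of 1.06 and 1.11. With flanks 10 kb away the ratio was 1.07, and at 20 kb 1.101. The end ratio was 1.08 at 20 kb and 1.06 at 75 kb. Counts within 1.5 times of the main value included 59 and 46 peaks with self-made smoothing of 12 and 14 kb half-width, and 39 to 44 peaks above 1 in the control. The named valleys stayed below 1 in each denominator. The planned scaling by the first ratio was the rule's own column and gave no separate value. No paired analysis was possible because each genotype and time had 1 library, which also left no replicate to omit.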

Other observations

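Runs of at least 4 adjacent windows past 1.1-fold of the median lay apart by direction. In Mcm6-SuOn at 15 min, 106 runs were high, 75 of them within 75 kb of an end, and 60 were low, 3 of them within 75 kb. Of all windows used, 18.4% lay within 75 kb of an end. The longest high run, chromosome IV 1515501 to 1524000, held 10990 reads at 15 min, against 12692 at 0 min, a relative copy number of 1.16 (1.13 to 1.19). Chromosome VI had the next, chromosome VI 15001 to 22500, at 1.17 (1.14 to 1.198), and chromosome VI 24501 to 31500, at 1.15 (1.12 to 1.18). The highest values among the 10 longest were 1.28 (1.23 to 1.32) at chromosome II 5501 to 11000 and 1.22 (1.18 to 1.26) at chromosome XVI 938501 to 944000. The longest low run, chromosome XV 139501 to 144500, had 0.871 (0.842 to 0.901) from 5556 and 8517 reads at 15 and 0 min, and the control had 0.861 there. The second, chromosome III 170501 to 175000, had 0.885 (0.853 to 0.918) in Mcm6-SuOn and 1.01 in the control. These runs were picked by length after the data were seen, and use the same ratio as the windows above.

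The 5 windows of highest depth, at chromosome XII 458501 to 461500, held 6477 to 110408 reads at 0 min in Mcm6-SuOn. Their relative copy number at 15 min was between 0.961 and 0.993, just below the genome median. Of the windows left out because their ratio is listed at 0, 174 lay on chromosome XII and 3 on XI.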
